A study of Mus musculus with 32 samples.

Results

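The Toll-like receptor, NOD and inflammasome genes are 36 named genes of innate immune sensing, measured in 4 tissues of mice with and without the orphan G protein-coupled receptor GPR146. All 36 were listed by symbol, with earlier results of these data known, and all were found among the 24646 named genes of each table. They comprise 12 Toll-like receptors (TLRs), 3 lipopolysaccharide (LPS) co-receptors, 4 adaptors, 5 genes of the IRAK kinases and Traf6, 6 genes of the NOD receptors and inflammasome, and 6 genes of NF-κB and its inhibitors. RNA came from the liver and 3 fat depots of male mice, namely the epididymal (eWAT) and inguinal (iWAT) white depots and brown fat (BAT). The wild-type group was Gpr146 WT and the knockout group was Gpr146 KO, a deletion carried in the whole body and therefore also in blood and immune cells. Both groups were 20 weeks old, had eaten a high-fat diet (HFD) for 3 months and were fasted overnight before harvest. No chow-fed or non-fasted group was analysed here, so every comparison was between genotypes on HFD, with 4 mice per genotype and tissue on 32 Affymetrix Mouse Gene 2.1 ST arrays. The array numbers name the mice of a group, and the labels do not say whether the same number in different tissues is the same animal.

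TLRs are membrane receptors that recognize microbial products, at the cell surface for bacterial lipids, lipoproteins and flagellin, and inside endosomes for nucleic acids. They pass the signal through TIR-domain adaptors to IRAK kinases and TRAF6, which free NF-κB from its inhibitors and switch on cytokine genes. NOD receptors sense bacterial cell wall fragments in the cytosol, and inflammasomes are sensor complexes that use PYCARD to activate caspase-1. In adipose tissue many of these genes are known for high expression in macrophages, which gather in the fat of obese animals, although adipocytes, endothelial cells and hepatocytes express some of them.

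The deposited values are log2 expression values, so a difference of 1 is a change of 2-fold. The median of all genes on an array lay between 2.82 and 3.73, and array pairs within a tissue correlated at 0.939 or more. Gpr146 itself, the targeted gene, was lower on every knockout array than on every wild-type array of the same tissue, with no overlap (exact two-sided permutation test, p = 0.0286 in each tissue, the smallest p that 4 against 4 can give). In liver its wild-type values were 6.17, 6.32, 6.21 and 6.19 and its knockout values 4.50, 4.26, 4.63 and 4.41. The titles of the knockout liver samples read as wild type while their other labels read as knockout, and the low Gpr146 values go with the latter. In eWAT the ranges were 5.32 to 6.05 in wild type and 3.63 to 4.63 in knockout, in iWAT 5.37 to 6.58 and 3.82 to 5.10, and in BAT 5.10 to 5.60 and 3.82 to 4.69. In the fit across all genes Gpr146 passed the threshold in liver and eWAT, but in iWAT (−1.55, SE 0.33, adjusted p = 0.221) and BAT (−1.16, SE 0.18, adjusted p = 0.0727) the deleted gene itself did not, so a count of 0 members in those depots does not show that members were unaltered.

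Members passed the test in eWAT and in no other tissue, although differences between tissues were not tested. In eWAT 18 of the 36 members were lower in Gpr146-deficient mice at an adjusted p under 0.05 and 0 were higher, against 10.7% of all genes tested that were lower and 4.57% that were higher (limma, Benjamini-Hochberg over all genes). The 4 knockout values lay below all 4 wild-type values for 22 members, against 13.0% of all genes, and above them for 0 members, against 8.63% of all genes. The median change of the members was −0.53 on the log2 scale, while the median over all genes was 0.03. By role, 6 of 12 TLRs, 2 of 3 LPS co-receptors, 4 of 4 adaptors, 2 of 5 genes of the IRAK kinases and Traf6, 3 of 6 NOD and inflammasome genes, and 1 of 6 genes of NF-κB and its inhibitors fell. Macrophage markers fell in the same knockout arrays, with values given below beside the members. In this bulk RNA, fewer cells of a type and less RNA per cell cannot be told apart.

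**Figure D1:**
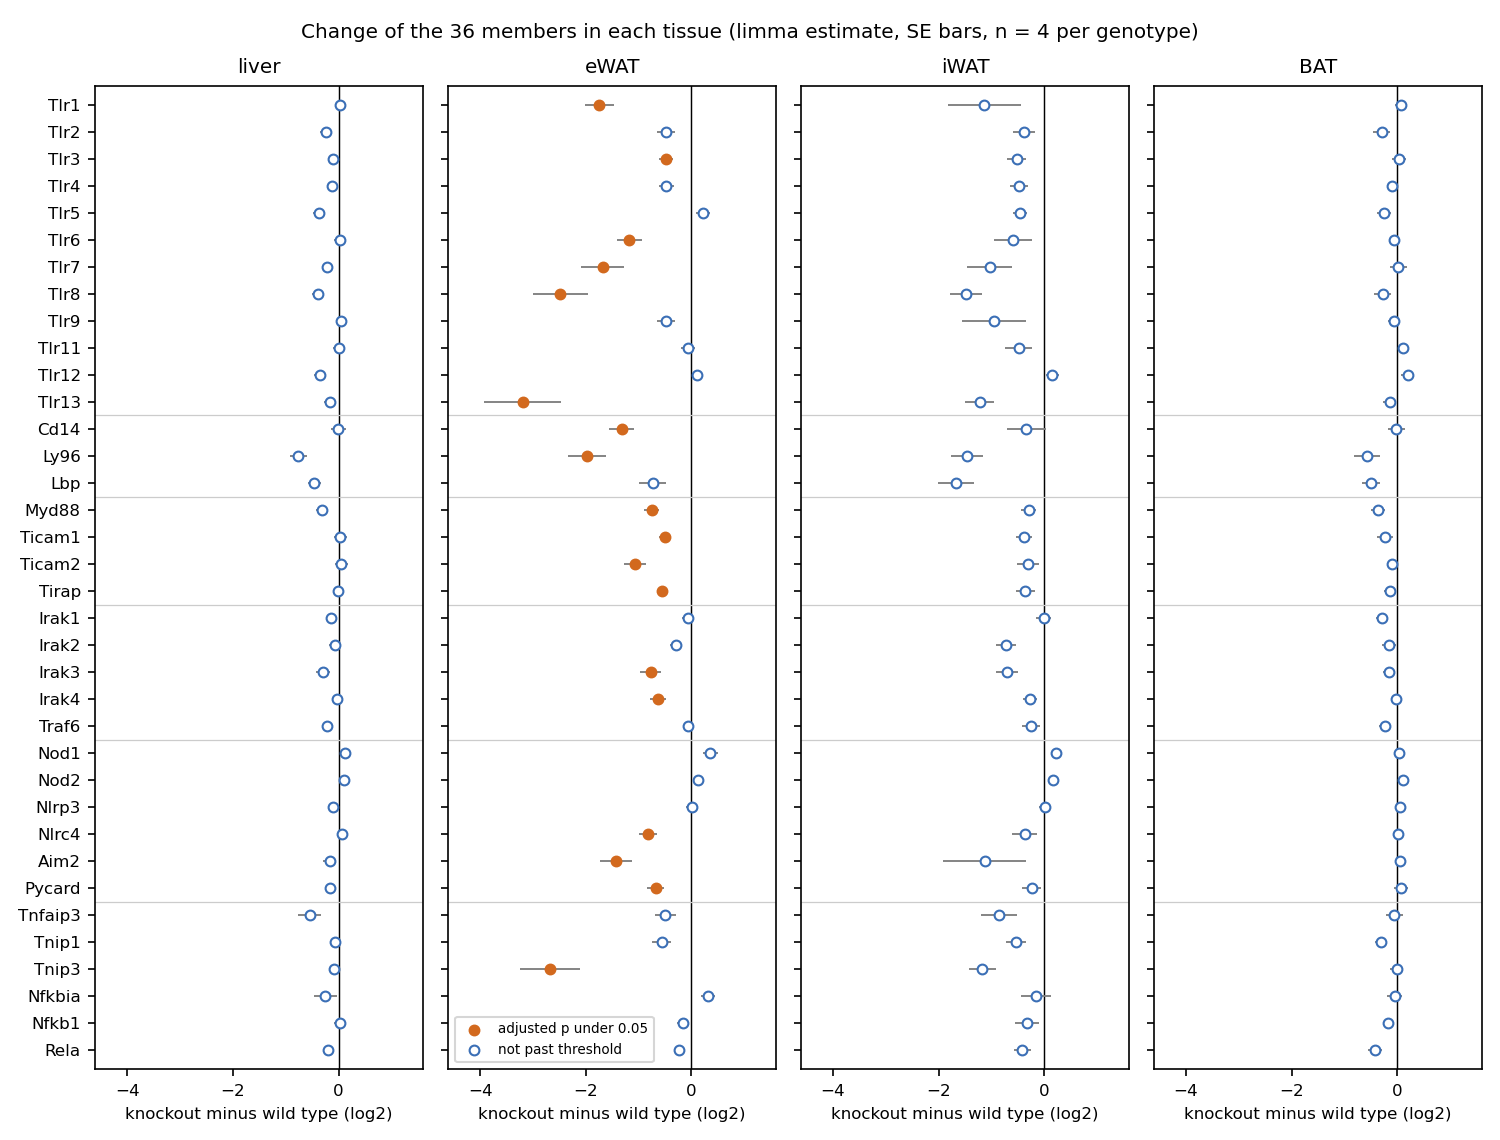
Change of each of the 36 members in the 4 tissues, as the knockout minus wild-type difference in log2 expression (horizontal axis) with its standard error from limma (bars, n = 4 mice per genotype). Filled points mark an adjusted p under 0.05, and all 18 of them are in eWAT and to the left of 0, down to −3.19 for Tlr13.

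Among the TLRs of eWAT, Tlr1 had the smallest p. TLR1 pairs with TLR2 at the cell surface to bind bacterial lipopeptides. Its wild-type values were 5.76, 5.94, 6.45 and 5.57, and its knockout values were 3.79, 5.02, 4.12 and 3.82. The groups did not overlap, knockout array 2 was the highest of the knockout arrays, and the mean fell from 5.93 ± 0.38 to 4.19 ± 0.57 (SD, n = 4 each), a 3.35-fold reduction (log2 difference −1.74, SE 0.28, adjusted p = 0.00936). Tlr6, a neighbouring and similar gene whose product also pairs with TLR2, was at 5.58, 5.12, 5.0 and 5.30 in wild type and 3.86, 4.68, 4.23 and 3.53 in knockout. Its 2.26-fold reduction (−1.17, SE 0.23, adjusted p = 0.0132) again left no overlap. How far the probe sets of Tlr1 and Tlr6 share sequence is not given in the sources used here, so the pair may not be fully independent measurements.

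The endosomal receptors for single-stranded RNA, Tlr7, Tlr8 and Tlr13, also fell. Tlr8 was at 7.74, 7.67, 8.02 and 7.71 in wild type and 4.64, 7.23, 4.90 and 4.45 in knockout, a 5.57-fold lower mean (−2.48, SE 0.52, adjusted p = 0.0161). Knockout array 2 stood near the wild-type arrays while the other 3 knockout arrays were all at 4.90 or less. Tlr13, which senses bacterial ribosomal RNA, had the largest fold among the members and is given here because of that value. It was at 7.26, 7.43, 7.48 and 7.42 in wild type and 2.78, 6.83, 3.99 and 3.24 in knockout (9.13-fold, −3.19, SE 0.73, adjusted p = 0.0197). The knockout SD was 1.82, and the call was lost without wild-type array 2, 3 or 4 or knockout array 1 or 4 (adjusted p up to 0.0594). Tlr7, which lies next to Tlr8, fell 3.21-fold (adjusted p = 0.0229) and was called in only 1 of the 8 fits that left out 1 array, the one without knockout array 2, with the highest adjusted p at 0.0693.

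Tlr3, the receptor for double-stranded RNA, fell by 0.48 (adjusted p = 0.0429), and its call held in 1 of the 8 leave-one-out fits, without knockout array 2. Tlr2, Tlr4 and Tlr9, the receptors for lipoproteins, LPS and unmethylated CpG DNA, had differences of −0.48, −0.47 and −0.48 with no overlap between groups, but adjusted p of 0.079, 0.061 and 0.0859. Tlr4 was at 5.71, 5.79, 5.69 and 5.87 in wild type and 5.28, 5.64, 4.85 and 5.39 in knockout, so its knockout array 2 lay just below the lowest wild-type array. Tlr5, the flagellin receptor, went the other way on average (0.21, adjusted p = 0.328), with overlapping groups. Tlr11 and Tlr12, receptors for profilin of parasites, were between 1.94 and 2.46 on every eWAT array, under the median of all genes, and had differences of −0.07 and 0.10 (adjusted p = 0.772 and 0.414). The tables carry no detection call, so whether these 2 receptors were measured above background is not known.

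Promoter windows of RefSeq (mouse build GRCm38.p6, 250 bases before to 50 after a start site) are shown for 4 of the members with the smallest p. They give the sequence upstream of Tlr1 and Tlr6, whose products each pair with TLR2, and of the adaptors they signal through. The choice left out 1 chromosome, that of Cd14 and Ticam2, and Ly96 had no window. Windows were available for 29 of the 36 members. Where a gene had more than 1 window, the one with the most motif matches is shown, or the first listed. Capitals mark the letters GAGGAA, the core bound by ETS factors such as the macrophage regulator PU.1, searched on both strands, and no other motif searched was found in these windows.
Tlr1, chr5:64933509-64933808, minus strand: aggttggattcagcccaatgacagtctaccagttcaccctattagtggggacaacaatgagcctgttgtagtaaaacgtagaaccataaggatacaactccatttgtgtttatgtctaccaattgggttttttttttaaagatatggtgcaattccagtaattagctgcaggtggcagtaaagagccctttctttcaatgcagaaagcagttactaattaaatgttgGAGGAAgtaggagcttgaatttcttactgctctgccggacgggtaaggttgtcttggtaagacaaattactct
Tlr6, chr5:64959117-64959416, minus strand: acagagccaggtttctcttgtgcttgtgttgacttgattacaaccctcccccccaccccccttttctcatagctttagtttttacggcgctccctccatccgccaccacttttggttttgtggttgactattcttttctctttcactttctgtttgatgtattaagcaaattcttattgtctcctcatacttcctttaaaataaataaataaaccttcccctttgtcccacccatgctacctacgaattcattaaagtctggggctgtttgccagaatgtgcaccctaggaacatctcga
Myd88, chr9:119339969-119340268, minus strand: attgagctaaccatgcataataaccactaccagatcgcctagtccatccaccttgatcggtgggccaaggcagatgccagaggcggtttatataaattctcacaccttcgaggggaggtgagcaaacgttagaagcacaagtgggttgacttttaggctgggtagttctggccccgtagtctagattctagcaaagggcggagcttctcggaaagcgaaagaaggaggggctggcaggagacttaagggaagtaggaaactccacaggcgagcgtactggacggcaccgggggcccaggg
Tirap, chr9:35199916-35200215, minus strand: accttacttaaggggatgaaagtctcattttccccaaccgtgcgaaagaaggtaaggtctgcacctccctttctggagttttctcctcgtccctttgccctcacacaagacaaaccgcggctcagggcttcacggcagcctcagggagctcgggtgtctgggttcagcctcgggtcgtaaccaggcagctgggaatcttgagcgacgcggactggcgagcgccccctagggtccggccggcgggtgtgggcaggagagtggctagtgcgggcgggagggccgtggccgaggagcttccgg
The Tlr1 window holds 1 GAGGAA, starting at position −23, and the other 3 windows hold none. Over all windows of a gene, GAGGAA was present in 8 of the 14 members with a window that fell in eWAT (57.1%), in 4 of the 15 that did not pass the test (26.7%) and in 31.3% of all 27025 genes with a window. The NF-κB consensus, also searched on both strands, was present in 7 of 29 members (24.1%) and 5.14% of all genes. Its 7 members were Tlr2, Tlr3, Nlrp3, Tnfaip3, Tnip1, Tnip3 and Nfkbia, of which Tlr3 and Tnip3 fell in eWAT. The AP-1 letters TGANTCA were present in Tlr9 and Tnfaip3 (6.9% of the 29 members) and in 8.97% of all genes. These are matches of letters in short windows, overlaps between the motifs were not removed, and binding was not measured.

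The LPS co-receptors hand LPS to TLR4. Ly96, which encodes MD-2, the LPS-binding partner of TLR4, was at 8.43, 8.56, 8.73 and 8.73 in wild-type eWAT and 6.56, 7.83, 5.76 and 6.39 in knockout. The mean fell 3.94-fold (−1.98, SE 0.36, adjusted p = 0.0109) with no overlap. Cd14, the surface protein that passes LPS to this complex, was at 5.94, 5.95, 6.62 and 6.01 in wild type and 4.50, 5.53, 4.47 and 4.73 in knockout. It fell 2.50-fold (−1.32, SE 0.24, adjusted p = 0.0115), again without overlap although wild-type array 3 stood above the others. Lbp, the secreted LPS-binding protein, had a difference of −0.73 with overlapping groups (9.11, 8.79, 9.50 and 8.92 against 8.57, 8.94, 7.69 and 8.18; adjusted p = 0.0846). Of the genes of LPS recognition, Ly96 and Cd14 thus passed the test while Lbp and Tlr4 did not, and whether these genes differed in their change was not tested.

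All 4 adaptors fell. Myd88, the adaptor of nearly every TLR, was at 6.49, 6.49, 6.47 and 6.37 in wild type and 5.56, 6.14, 5.43 and 5.68 in knockout, a 1.69-fold reduction (−0.75, SE 0.14, adjusted p = 0.0114). Tirap, which bridges MyD88 to TLR2 and TLR4, was at 5.0, 5.21, 5.21 and 5.09 against 4.49, 4.84, 4.43 and 4.54 (1.47-fold, −0.55, SE 0.10, adjusted p = 0.0117). Ticam2, the TRAM adaptor that bridges TLR4 to TRIF, was at 4.12, 4.06, 4.13 and 3.89 against 2.61, 3.49, 3.29 and 2.51 (2.1-fold, −1.07, SE 0.21, adjusted p = 0.0129). None of these 3 adaptors had overlapping groups, and all 3 were called in each of the 8 leave-one-out fits. Ticam1, which encodes TRIF, the adaptor of TLR3 and of the interferon branch of TLR4, fell by 0.50 (adjusted p = 0.0205) and lost its call without wild-type array 3 or 4 or knockout array 1 or 4 (adjusted p up to 0.0625).

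The kinase step was mixed. Irak4, the first kinase recruited by MyD88, fell by 0.64 (adjusted p = 0.0227), and Irak3, a kinase-dead relative that restrains the pathway and is typical of macrophages, fell by 0.77 (adjusted p = 0.0315). The call of Irak4 held in 3 of the 8 leave-one-out fits, those without knockout array 1, 2 or 3, and that of Irak3 in 2, those without knockout array 2 or 3. Irak2 had no overlap but a difference of −0.30 that missed the threshold (adjusted p = 0.0857). Irak1 and the ubiquitin ligase gene Traf6 had differences of −0.06 (SE 0.12) and −0.07 (SE 0.09), with adjusted p of 0.762 and 0.606 and overlapping groups.

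Within the inflammasome group, the DNA and flagellin branches and their shared adaptor fell while values of the NLRP3 and NOD sensors did not pass the test. Aim2, the sensor of cytosolic DNA, was at 4.99, 4.82, 5.10 and 4.88 in wild type and 2.91, 4.57, 3.40 and 3.19 in knockout (2.69-fold, −1.43, SE 0.30, adjusted p = 0.016). Nlrc4, the inflammasome of flagellin and bacterial secretion needles, was at 3.94, 4.15, 4.39 and 4.05 against 2.94, 3.76, 3.37 and 3.16 (1.77-fold, −0.82, SE 0.17, adjusted p = 0.015). Both had separate groups and both were called in each of the 8 leave-one-out fits. Pycard, which encodes the ASC adaptor of these complexes, fell by 0.68 (adjusted p = 0.0196) and lost its call without wild-type array 2, 3 or 4. Nlrp3, the inflammasome sensor best known in obesity, was at 2.63, 2.52, 2.74 and 2.75 in wild type and 2.44, 2.60, 2.95 and 2.67 in knockout, a difference of 0.01 (SE 0.11, adjusted p = 0.979). Its values, like those of Nod2 (2.68 to 2.91), lay under the median of all genes on the eWAT arrays, which was at least 3.13, and no detection call says how far they were from background. Nod1, a sensor with higher values, had a difference of 0.36 (SE 0.14, adjusted p = 0.116) toward the knockout and overlapped by 1 knockout array at 6.14.

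Among NF-κB and its inhibitors, Tnip3, which encodes an A20-binding inhibitor of NF-κB, fell. It is given for its large fold, and was at 7.45, 7.30, 7.59 and 7.41 in wild type and 3.92, 6.81, 4.58 and 3.75 in knockout (6.38-fold, −2.67, SE 0.57, adjusted p = 0.0164). The groups were separate and the call held in each of the 8 leave-one-out fits. Its relatives Tnfaip3, which encodes A20, and Tnip1 had differences of −0.50 and −0.57 (adjusted p = 0.129 and 0.0685) with overlapping groups. The NF-κB subunit genes Nfkb1 and Rela had differences of −0.17 and −0.23 (adjusted p = 0.321 and 0.148). Nfkbia, which encodes IκBα and is itself an NF-κB target, had a difference of 0.32 toward the knockout (6.90, 7.10, 7.38 and 6.98 against 7.13, 7.53, 7.61 and 7.35, adjusted p = 0.15).

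**Figure D2:**
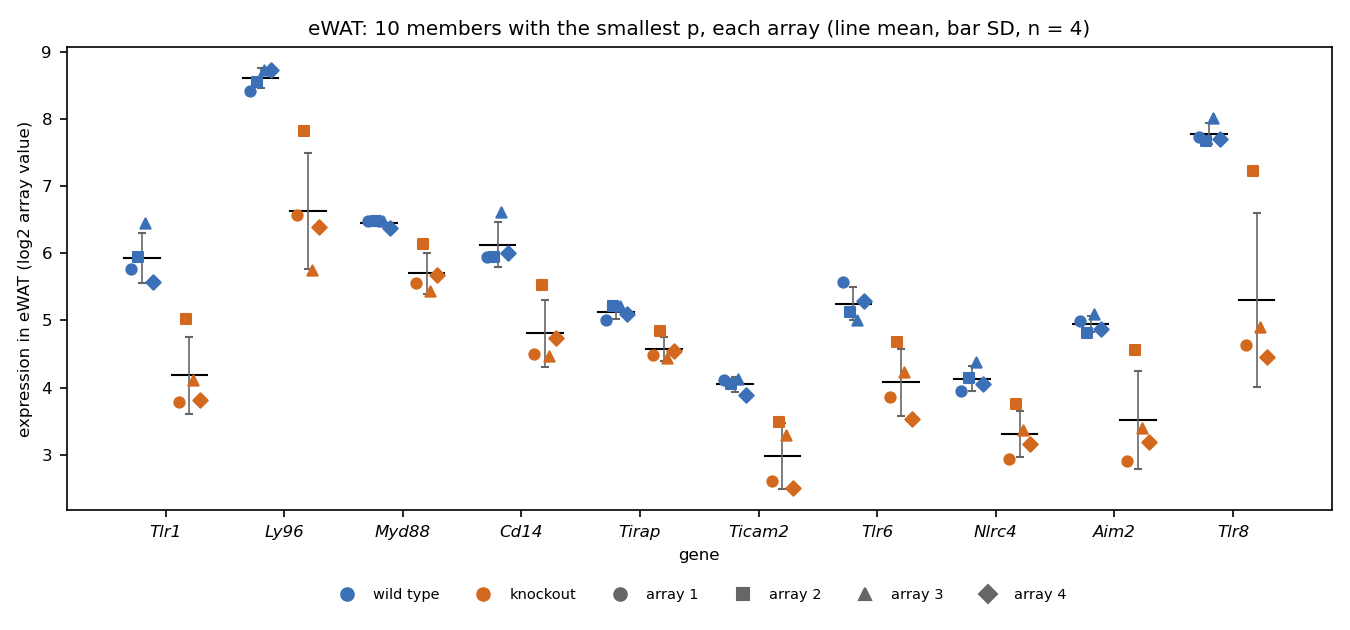
Log2 expression in eWAT of the 10 members with the smallest p, on each wild-type (blue) and knockout (orange) array, with marker shapes for array numbers, lines for means and bars for the SD (n = 4). In each of the 10 genes the groups are apart, and knockout array 2 (square) is the knockout array nearest the wild type.

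Knockout array 2 had the highest value of the 4 knockout arrays for 17 of the 18 members that fell in eWAT, Ticam1 being the exception, and it was the lowest for none. The mean of 13 macrophage markers was likewise highest on that knockout array. It was 8.33, 8.30, 8.54 and 8.40 on the wild-type arrays of eWAT and 6.09, 8.12, 6.77 and 6.33 on the knockout arrays, and 11 of the 13 markers fell. Adgre1, which encodes F4/80, was at 8.70, 8.72, 9.07 and 8.81 against 5.37, 8.31, 6.54 and 5.74. Cd68 was at 10.75, 10.66, 10.87 and 10.76 against 7.32, 10.36, 8.55 and 7.76. The mean of 8 markers of lipid-associated macrophages, the Trem2-positive cells of obese fat, ranged from 8.40 to 8.61 in wild type and 5.40 to 8.08 in knockout, and 7 of the 8 fell. The dendritic cell, neutrophil, T cell and B cell lists held no marker that fell, and 1 of 6 dendritic cell markers rose. The B cell mean was 4.18 on knockout array 3 and 2.72 to 2.98 on the other eWAT arrays. Of 6 Kupffer cell markers 2 fell. Of 6 adipocyte markers 5 rose and the sixth, Lep, fell, and 2 of 6 endothelial markers rose. The part of these shifts in the members' changes was not tested. Without knockout array 2 the fit called 23 members, 22 lower and Nod1 higher, while the calls over all genes went from 3758 to 5429. Without wild-type array 3 or 4 it called 11 members, beside 8.96% and 6.73% of all genes.

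The other genes of the pathway were also mostly lower in knockout eWAT. Of 61 such genes, 22 fell, 1 rose and 38 did not pass the test, with a median difference of −0.25. Of all genes tested, 10.7% fell and 4.57% rose at the same threshold. The counts that fell were 4 of 9 chaperones and modulators, 1 of 11 genes of the kinase and ubiquitin complexes, 2 of 6 interferon-branch genes, 9 of 19 inflammasome partners and effectors, 3 of 6 other NF-κB and inhibitor genes, and 3 of 10 inflammatory target genes. Casp1, the inflammasome protease, fell by 1.85 (adjusted p = 0.0157), Casp4, the caspase of the non-canonical inflammasome, by 1.10 (adjusted p = 0.0132) and Casp8 by 0.84 (adjusted p = 0.00924). Cd180, a TLR4-like surface receptor, fell by 2.58 (adjusted p = 0.0177), and Btk, a kinase of myeloid and B cells, by 1.89 (adjusted p = 0.0134). Of the target and effector genes, Tnf fell by 1.14 (adjusted p = 0.0104), Il1rn, the interleukin-1 receptor antagonist, by 1.86 (adjusted p = 0.00981), and the NF-κB subunit gene Rel by 1.26 (adjusted p = 0.0122). The gene that rose was Txnip, whose product binds thioredoxin and NLRP3 (0.35, adjusted p = 0.0365). The kinase and ubiquitin complexes, with a median difference of −0.02, were the nearest of the 6 lists to the median of all genes.

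In iWAT 0 of 36 members passed the threshold, as did 0.0% of all genes tested (limma). At an unadjusted p under 0.05, 15 members were lower and 0 higher, against 8.34% of all genes that were lower, and 8 members had all knockout values below all wild-type values, against 3.86% of all genes. The members' differences ran from −1.68 to 0.22 with a median of −0.44, and 32 of 36 were below 0. The 3 members with the smallest p all had an adjusted p of 0.221. Lbp was at 7.80, 7.88, 8.53 and 8.44 in wild type and 5.82, 6.96, 5.90 and 7.24 in knockout (−1.68, SE 0.34). Ly96 was at 7.85, 7.80, 8.06 and 8.14 against 5.57, 7.04, 6.32 and 7.06 (−1.46, SE 0.30), and Tlr8 at 5.05, 4.76, 5.91 and 6.04 against 3.67, 4.48, 3.80 and 3.91 (−1.48, SE 0.30). The groups of all 3 were separate. Tlr13, Tlr4, Irak2, Irak3 and Tnip3 were the other members without overlap, with differences from −1.22 for Tlr13 to −0.48 for Tlr4.

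The iWAT arrays differed strongly in lymphocyte markers within each genotype. The mean of 8 B cell markers was 7.94, 7.91, 3.34 and 3.31 on the wild-type arrays and 3.61, 7.59, 3.49 and 5.78 on the knockout arrays. Tlr9, which B cells express, was at 6.17, 6.32, 5.60 and 4.25 in wild type and 3.76, 6.29, 3.91 and 4.55 in knockout (−0.96, SE 0.61, adjusted p = 0.45). Its 3 highest values were on the 3 arrays with the highest B cell means, but wild-type array 3, low in B cell markers, stood above knockout array 4, which was high in them. Tlr1 and Aim2, at −1.14 and −1.13 with SEs of 0.69 and 0.78, had the widest errors of the members there. In a fit chosen after these values were seen, which left out the 4 arrays with a mean above 5 (wild-type 1 and 2, knockout 2 and 4), 10 members were called and all were lower, beside 3.72% of all genes called: Tlr1, Tlr4, Tlr7, Tlr8, Ly96, Lbp, Irak2, Irak3, Tnip1 and Tnip3. That fit rests on 2 mice per genotype, and its changes were −2.62 for Lbp (adjusted p = 0.00326), −2.24 for Tlr8 (adjusted p = 0.00452) and −2.15 for Ly96 (adjusted p = 0.0118). It left out the knockout arrays with the highest TLR means (5.06 and 4.39) and macrophage means of that genotype. The wild-type arrays it left out had the lowest macrophage means but the highest TLR means (5.17 and 5.09). The arrays kept were thus not chosen independently of the members' values, and the calls are no separate support. The macrophage mean in iWAT was 6.95, 6.56, 7.65 and 7.42 in wild type and 5.85, 6.84, 5.88 and 6.00 in knockout, with 0 of 13 markers called. All 13 had lower values in knockout, 10 of them at an unadjusted p under 0.05 (limma), against 8.34% of all genes. The part of these markers in the members' values was not tested. Of the 61 other pathway genes 0 passed the threshold and 14 were lower and 1 higher at an unadjusted p under 0.05. The 2 with the smallest p were Ccl2, the monocyte chemoattractant (−1.39), and Casp4 (−0.65), both at an adjusted p of 0.221.

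Whether the tables share a normalization is not stated, and their array medians differ (2.82 to 2.86 in BAT against 3.65 to 3.73 in iWAT), so levels set across tissues are a description only. Tlr8 averaged 7.78 in wild-type eWAT, 5.44 in iWAT, 2.79 in BAT and 2.25 in liver, and Tlr13 averaged 7.40, 4.41, 2.38 and 2.18 in that order. Lbp, an acute-phase protein made by hepatocytes and adipocytes, averaged 9.08 in eWAT, 8.68 in liver, 8.16 in iWAT and 4.01 in BAT. Nlrp3 averaged from 2.16 to 2.79 in the wild-type arrays of all 4 tissues. The receptors with the largest changes in eWAT were thus under the median of all genes in wild-type liver and BAT.

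**Figure D3:**
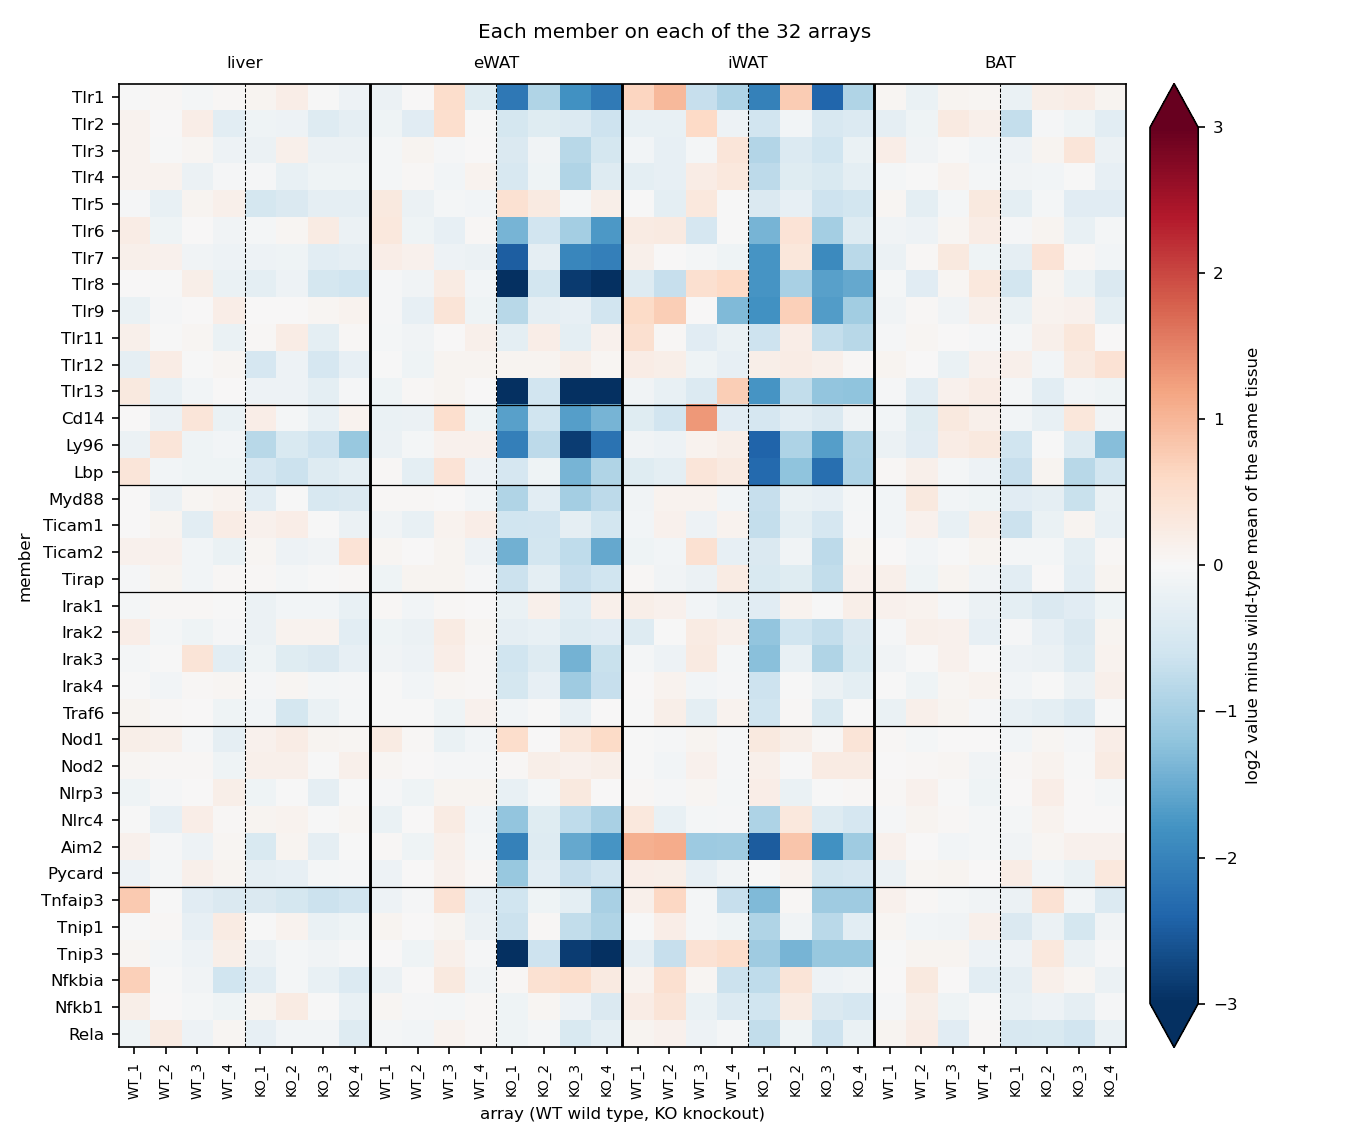
The 36 members (rows, in role groups) on the 32 arrays (columns), as log2 expression minus the wild-type mean of the same tissue, blue for lower and red for higher, with the colour scale ending at 3 in each direction. Knockout arrays 1, 3 and 4 of eWAT carry the deepest blue, in Ly96, Tlr7, Tlr8, Tlr13 and Tnip3, and in iWAT Tlr9 and Aim2 vary within each genotype.

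In liver 0 of 36 members passed the threshold, against 0.661% of all genes in either direction (limma). At an unadjusted p under 0.05, 8 members were lower and 0 higher, against 7.48% of all genes that were lower. The members' differences ran from −0.76 to 0.13 with a median of −0.12, and 26 of 36 were below 0. Separate groups with the knockout below were found for 5 members, Ly96, Tlr5, Lbp, Tnfaip3 and Irak1, against 4.16% of all genes. Ly96 came nearest to the threshold, at 4.80, 5.35, 4.85 and 4.90 in wild type and 4.14, 4.51, 4.36 and 3.84 in knockout (1.69-fold, −0.76, SE 0.16, adjusted p = 0.0559), and it passed in 4 other fits that corrected over genes. Tlr5 was at 6.24, 6.05, 6.36 and 6.42 against 5.74, 5.82, 6.01 and 5.99 (−0.38, SE 0.10, adjusted p = 0.123). Lbp, an acute-phase product of hepatocytes, was at 9.04, 8.60, 8.55 and 8.56 against 8.18, 8.04, 8.29 and 8.39 (−0.46, SE 0.12, adjusted p = 0.126). The hepatocyte marker mean stayed between 10.76 and 10.83 on all 8 liver arrays. Tlr4 and Cd14, the partners of Ly96, had differences of −0.13 and 0.00 (adjusted p = 0.558 and 0.999), at wild-type means of 2.45 and 2.74, under the median of all genes.

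In liver most macrophage markers had lower values without passing the test, and some endothelial markers fell. The mean of 6 Kupffer cell markers was 5.84, 5.11, 6.39 and 5.13 in wild type and 3.91, 5.29, 4.37 and 4.27 in knockout. Of these, 0 of 6 were called, but all 6 were lower at an unadjusted p under 0.05. The mean of the 13 macrophage markers was 5.29, 4.84, 5.35 and 4.86 against 4.11, 4.96, 4.30 and 4.36. Of these, 1 of 13 was called and 10 were lower at an unadjusted p under 0.05 (limma), against 7.48% of all genes. Of 6 endothelial markers 3 fell. The lipid-associated macrophage list went the other way, with 6 of 8 markers above 0, 3 of them at an unadjusted p under 0.05 but 0 called, and means of 3.28 to 3.64 in wild type and 3.49 to 4.14 in knockout. The part of these shifts in the values of Ly96, Tlr5 and Lbp was not tested. Of the 61 other pathway genes, Txnip fell by 1.13 (6.58, 6.24, 6.89 and 6.39 against 5.32, 5.56, 5.84 and 4.86, adjusted p = 0.0311). Gsdmd, whose product gasdermin D forms the pores of pyroptosis, rose by 0.41 (4.47, 4.23, 4.23 and 4.41 against 4.70, 4.73, 4.81 and 4.73, adjusted p = 0.0474), and the other 59 did not pass. No fit that left out 1 array kept both calls. Txnip alone held without wild-type array 2 or knockout array 2 or 3, Gsdmd alone held without wild-type array 1, and neither held without wild-type array 3 or 4 or knockout array 1 or 4. Txnip thus rose in eWAT and fell in liver, a difference that was not tested across the tables.

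In BAT 0 of 36 members passed the threshold, against 0.0284% of all genes in either direction (limma), and the members' differences ran from −0.57 to 0.19 with a median of −0.08, 25 of 36 being below 0. At an unadjusted p under 0.05, 6 members were lower and 0 higher, against 7.44% of all genes that were lower. Only Myd88 had separate groups, against 3.92% of all genes with the knockout below. It was at 5.36, 5.71, 5.36 and 5.29 in wild type and 5.09, 5.16, 4.77 and 5.22 in knockout (−0.37, SE 0.13, adjusted p = 0.25). Rela, the main activating NF-κB subunit, was at 7.28, 7.42, 6.84 and 7.22 against 6.71, 6.74, 6.61 and 6.98 (−0.43, SE 0.13, adjusted p = 0.208). Irak1 was at 6.65, 6.62, 6.48 and 6.35 against 6.22, 6.09, 6.18 and 6.40 (−0.30, SE 0.10, adjusted p = 0.243). Both Rela and Irak1 overlapped by a single array of each group. The TLRs that fell in eWAT had differences from −0.28 for Tlr8 to 0.07 for Tlr1 in BAT, with wild-type means of 2.33 to 2.79 apart from Tlr3 at 5.75. Of the 61 other pathway genes 0 passed, 5 were lower and 1 higher at an unadjusted p under 0.05, and Casp8 (−0.39, adjusted p = 0.239) and Il1rn (0.28, adjusted p = 0.285) had the smallest p.

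The BAT arrays differed in skeletal muscle markers, whose mean was 3.17, 6.46, 7.35 and 3.11 on the wild-type arrays and 3.08, 7.64, 3.82 and 3.13 on the knockout arrays. In a fit chosen after these values were seen, without the 3 arrays above 5 (wild-type 2 and 3, knockout 2), 0 members were called. The macrophage mean in BAT was 4.80, 4.65, 5.23 and 4.80 in wild type and 4.43, 5.11, 4.54 and 4.35 in knockout, with 0 of 13 markers called. Of the 13, 12 had lower values in knockout, 3 of them at an unadjusted p under 0.05 (limma), against 7.44% of all genes.

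Knockout array 2 had the highest macrophage marker mean of the knockout arrays in each of the 4 tissues, at 4.96 in liver, 8.12 in eWAT, 6.84 in iWAT and 5.11 in BAT. It also had the highest mean of the 12 TLRs among the knockout arrays of each tissue, at 2.92, 5.0, 5.06 and 3.18 in that order. In iWAT this array lay within the wild-type TLR range of 4.99 to 5.17, and in eWAT it lay below the wild-type range of 5.19 to 5.37. The TLR mean of the other 3 knockout arrays was 3.95, 4.13 and 4.01 in eWAT and 3.93, 4.02 and 4.39 in iWAT.

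**Figure D4:**
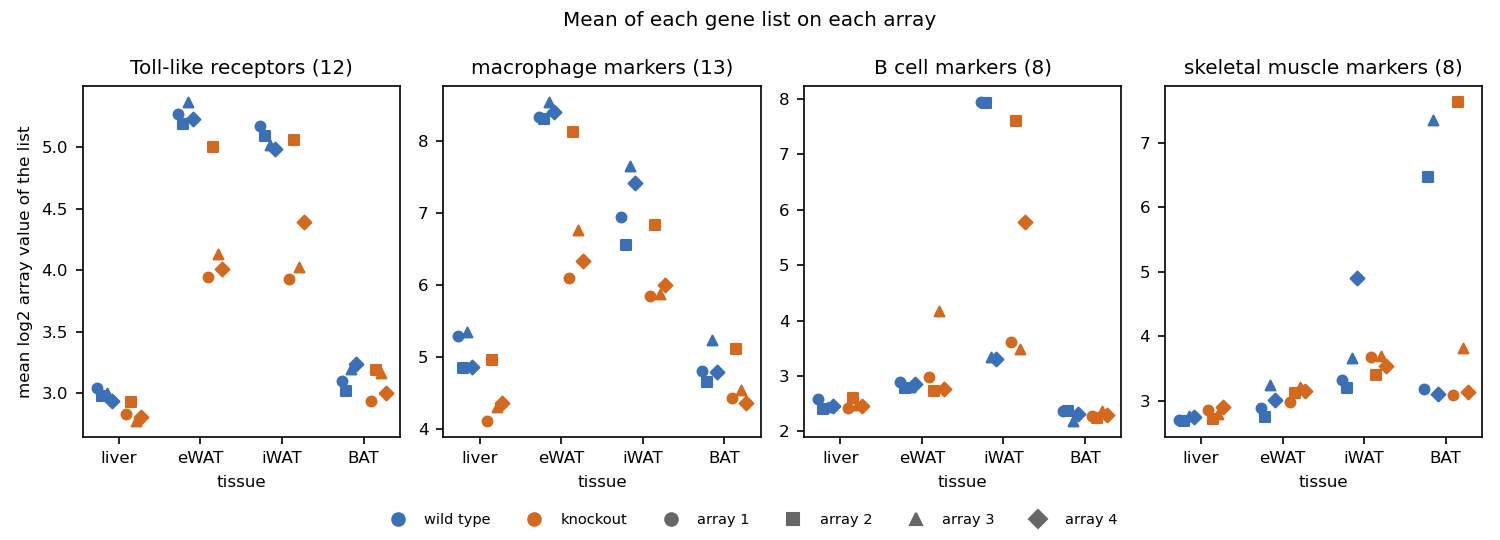
Mean log2 expression of the 12 TLRs and of the macrophage, B cell and skeletal muscle marker lists on each array, by tissue, with wild type in blue, knockout in orange and marker shapes for array numbers. In eWAT the TLR mean and the macrophage mean both drop on knockout arrays 1, 3 and 4, B cell markers are high on 4 iWAT arrays, and muscle markers are high on 3 BAT arrays.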

How the data were processed

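RNA from liver, eWAT, iWAT and BAT of Gpr146 WT and Gpr146 KO mice (n = 4 per genotype and tissue) was profiled with the Affymetrix Mouse Gene 2.1 ST array, 1 per mouse and tissue. The authors deposited 1 table of log2 expression values per tissue. How the values were background-corrected and normalized, and whether together or per tissue, is not given in the sources used here. Array medians differ between the tables, so tests were run only within a tissue. Rows with a blank or number-like name were left out (1 in eWAT, 2 in each other tissue), and the deposited tables hold 840 genes averaged over several probe sets, Nod2 among them. Background signal and averaging can compress the changes of dim genes.

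Each table was fitted with limma 3.58.1 in R 4.3.3 (lmFit, eBayes, knockout minus wild type) over 24646 genes, with Benjamini-Hochberg adjustment over all of them and a threshold of 0.05. The step was also run on simulated data with independent noise for each gene. Such data lack variation that genes share on an array, so that run cannot vouch for the member counts. Gpr146 was also tested with an exact permutation test. The number of arrays limits the precision. Values in every array are given per tissue for called members (the 10 with the smallest p, or the 3 with the smallest p where fewer than 3 were called), and for Tlr13 and Tnip3, chosen after their values were seen. Other pathway genes were named if called (at most 8), or else the 2 with the smallest p. Members and gene lists were chosen with earlier results of these data known. Lists also covered markers of 12 cell types, of which Trbc2 had no row. Alternatives were other normalizations, a filter on dim genes, other priors, array weights, a replicate block, the methods' t-test and leaving out each array.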

Additional observations from a re-analysis of the deposited data

Results flagged for a closer look

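In 6 groups of 4 arrays, out of 50 examined, 1 array lay far from the other 3, where chance gives about 1 group in 20. In eWAT, Tlr8 on knockout array 2 was at 7.23 while the other knockout arrays were at 4.45 to 4.90, Cd14 on wild-type array 3 was at 6.62 against 5.94 to 6.01, and Myd88 on wild-type array 4 was at 6.37 against 6.47 to 6.49. In liver, Lbp on wild-type array 1 was at 9.04 against 8.55 to 8.60. In BAT, Myd88 on wild-type array 2 was at 5.71 against 5.29 to 5.36. In iWAT, the macrophage marker mean of knockout array 2 was 6.84 against 5.85 to 6.00.

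For 3 members every knockout array lay above the wild-type mean in 1 tissue and below it in another, a difference that was not tested. Nfkbia had a difference of 0.32 in eWAT and −0.25 in liver. Tlr9 had −0.48 in eWAT and 0.051 in liver. Tlr12 had 0.10 in eWAT and 0.15 in iWAT but −0.35 in liver. None of these values passed the test in its own tissue.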

How the results depend on the processing

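The count of 18 members in eWAT stood beside 15.2% of all genes called. It was 18 after quantile normalization (Nod1 higher gained, Tlr3 lost), also beside 15.2%. It was 17 with array medians made equal and 18 with a trended and robust prior, each beside 14.7%. It was 20 of the 32 members tested without dim genes, and 23 with array weights, beside 21.5%. Leaving out single arrays gave 11 to 23, while these fits made 1448 to 5429 calls over all genes, against 3758 with every array. Of the 18 members, 11 stayed called in all 8 such fits. The methods' t-test gave 0 after Benjamini-Hochberg adjustment, beside 0.154% of all genes, and 24 unadjusted, beside 27.6%. These member counts are therefore to be read beside the calls over all genes. For the 10 members shown by array, that adjusted t-test gave p of 0.0645 to 0.0837. The 23 other pathway genes of eWAT became 6 to 29 without single arrays and 0 and 29 in the adjusted and unadjusted t-test. The calls over all genes in these fits were those given above. The adjusted t-test differed from limma in its error estimate, which borrows nothing across genes, and so also in its degrees of freedom.

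In liver the count of 0 members became 1, Ly96, without dim genes (adjusted p = 0.0441). It was also 1, Ly96, with the trended and robust prior (adjusted p = 0.0483), beside 0.795% of all genes, and without knockout array 2 (adjusted p = 0.0283), beside 1.22%. It ranged from 0 to 1 without single arrays, beside 0.166% to 1.22% of all genes, and was 7 in the unadjusted t-test, beside 11.8%. The 2 other pathway genes were 1 with that prior and 0 in the adjusted t-test, beside 0.00811% of all genes. They were 11 in the unadjusted t-test and 0 to 2 without single arrays, where a count of 2 held Txnip and Ly86. In iWAT the unadjusted t-test called 13 members and 11 other pathway genes, beside 12.8% of all genes. Single arrays left out gave 0 to 1 and 0 to 4, beside 0.0% to 0.921% of all genes. The fit without arrays high in B cell markers, chosen after seeing the data, gave 10 and 9, beside 3.72%. In BAT the unadjusted t-test called 4 and 6, or shares no higher than the 11.4% of all genes it called. Gpr146 in BAT, at an adjusted p of 0.0727, passed without wild-type array 1 (−1.25) and without knockout array 2 (−1.32), and in iWAT it did not pass in any fit that left out 1 array (adjusted p from 0.0835 to 0.483). Gpr146 kept its sign in each tissue when single arrays were left out, and the members' medians kept theirs in the settings where they were recomputed. The members picked in each tissue for the smallest p also kept their sign in the settings that held them. Having been picked by p, they were unlikely to change sign. Members near 0 did change sign, such as Tlr11, Irak1 and Nlrp3 in eWAT. Their differences spanned 0 (−0.15 to 0.01, −0.13 to 0.03 and −0.09 to 0.08) when single arrays were left out.

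Same-numbered wild-type and knockout arrays were not paired by the labels, and their deviations correlated above 0.1 for every number in no tissue (from −0.38 to 0.67). With the replicate block, the count of members was 1 in liver (Ly96, adjusted p = 0.0215), beside 0.767% of all genes. It was 19 in eWAT, beside 13.8%, and 0 in each of the other 2 tissues, and the count of other pathway genes in liver was 1.

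With no detection calls, differences of genes near or below the array medians, such as Nlrp3, Nod2, Tlr11 and Tlr12, have no known distance from background.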
